A study of Mus musculus with 80 samples.

Results

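The effect of ACVR2B/Fc on transcription in healthy muscle was measured in the tibialis anterior (TA), a predominantly fast muscle at the front of the shin, of wild type (WT) mice. The comparison holds 20 of the 80 libraries of the series, every TA library whose labels give the WT genotype: 10 from mice given ACVR2B/Fc and 10 from mice given vehicle. All 20 came from female C57BL6xCBA mice sampled at 12 weeks of age. According to the methods of the study, littermates received weekly subcutaneous injections from 5 to 11 weeks of age, of ACVR2B/Fc at 10 mg/kg or of phosphate buffered saline, and muscles were taken 1 week after the last dose. Each library was made from the muscle of 1 mouse, so the transcripts of myofibres, connective tissue, vessels, nerve and blood cells were counted together, and fewer cells of a type and less RNA per cell cannot be told apart. R6/2 mice (labelled R6/2 CAG200) carry the start of the human huntingtin gene with an expanded CAG repeat. Their TA libraries were fitted together with the 20 WT libraries, so they shared the scaling and the estimate of the spread between mice. They also entered the filter on counts and the rule for setting libraries apart. The quadriceps entered the filter on counts. Apart from alternative fits, both were otherwise used only where a response was compared with the one described here.

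Myostatin is a ligand of the TGF-beta superfamily that muscle fibres secrete and that limits muscle mass. Myostatin, the activins and GDF11 bind the type II receptors ACVR2A and ACVR2B, which recruit type I receptors that phosphorylate SMAD2 and SMAD3, whereas bone morphogenetic proteins (BMPs) signal through SMAD1, SMAD5 and SMAD9. ACVR2B/Fc joins the extracellular part of ACVR2B to an antibody Fc fragment and acts as a soluble decoy that takes up these ligands before they reach the cell.

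The libraries held 42.4 to 50.3 M estimated counts in ACVR2B/Fc mice (median 43.2) and 38.4 to 44.5 M in vehicle mice (median 41.2). The 10 most abundant genes took 32.5 to 38.5% of the counts in ACVR2B/Fc libraries and 31.5 to 36.6% in vehicle libraries. Levels are given in CPM, counts scaled to a fixed total after TMM scaling of the libraries, which are not divided by transcript length. The TMM factors ran from 0.752 to 0.846 in ACVR2B/Fc libraries and from 0.800 to 0.897 in vehicle libraries. The 10 listed marker genes of skeletal muscle summed to 93072 to 134937 CPM in ACVR2B/Fc mice and 95746 to 118666 CPM in vehicle mice. These levels mark the tissue as skeletal muscle and do not tell the TA from another muscle. The order of the library numbers in the labels, in which lane numbers start again, splits the series into 2 parts. ACVR2B/Fc libraries fell 3 in the first part and 7 in the second, and vehicle libraries 8 and 2, so the treatment is partly confounded with the part. Values with the part as a covariate are given where they end a call or turn a direction.

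Among the 20 libraries, 4 carried transcripts of another tissue, which were sought with lists of liver, pituitary and hair follicle genes. A library was set apart when a list summed to at least 10 CPM and over 10 times the median of the 40 TA libraries. Liver transcripts reached 270 CPM in ACVR2B/Fc replicate 2, and the other ACVR2B/Fc libraries held 7.08 to 19.3 CPM. In vehicle replicate 8 they reached 1227 CPM, where the other vehicle libraries held 7.24 to 21.5 CPM. Albumin (Alb) was at 124 CPM in ACVR2B/Fc replicate 2 and 602 CPM in vehicle replicate 8, and the carrier proteins Trf and Ahsg were at 101.3 and 51.5 CPM in the second of these.

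Pituitary transcripts reached 605 CPM in vehicle replicate 7 and 20.6 CPM in vehicle replicate 10. The hormone genes Prl (prolactin) and Gh (growth hormone) were at 484 and 107.5 CPM in vehicle replicate 7, and Prl was at 17.7 CPM in vehicle replicate 10. Vehicle replicate 10 was 1 of the 2 vehicle libraries in the second part of the series. Values given within that part therefore rest partly on a library set apart. No ACVR2B/Fc library was set apart for the pituitary list, and the highest, replicate 8, held 1.66 CPM. Hair follicle and skin transcripts summed to 6.36 to 9.04 CPM in ACVR2B/Fc mice and 6.76 to 9.78 CPM in vehicle mice, and set no WT TA library apart. Of 24 listed genes of hair follicle and skin, 5 passed the filter, against 22 of 23 for liver and 6 of 12 for pituitary. The filter asks for 2 counts or more in at least 10 of 79 libraries, so a transcript carried into a single library could be missing from these sums. The hair follicle and skin sums therefore cannot show that no library carried such transcripts. The first principal component, with 18.6% of the variance, also placed ACVR2B/Fc replicate 2 and vehicle replicate 8 away from the other libraries, at 36.7 and 53.1.

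**Figure D1:**
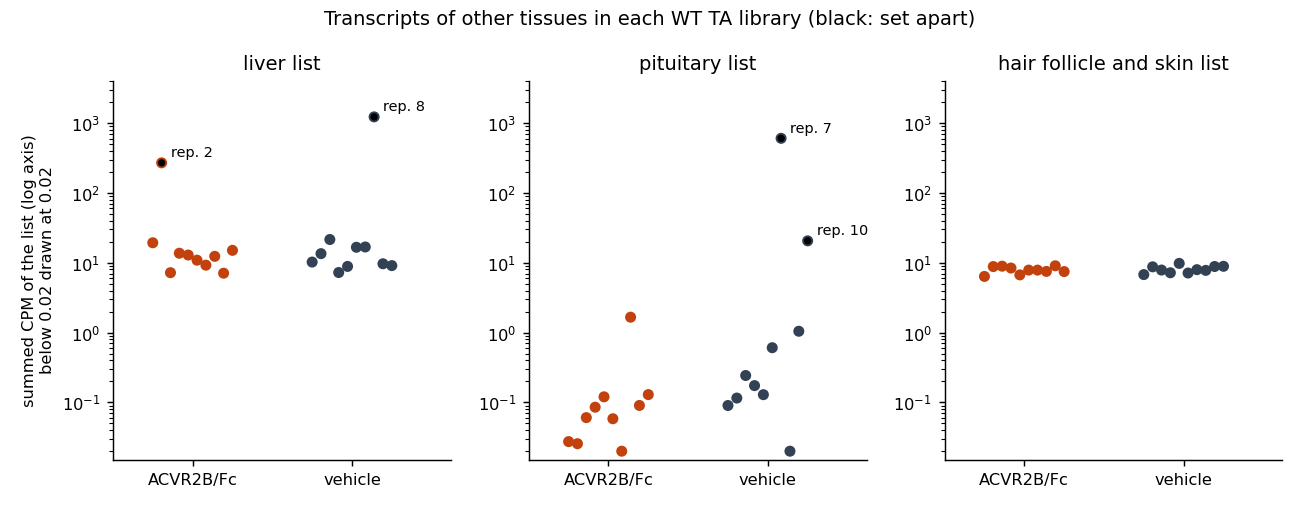
Summed CPM of the liver, pituitary and hair follicle and skin lists (log axis) in each of the 20 WT TA libraries, with ACVR2B/Fc on the left of each panel and vehicle on the right. The black points are the libraries set apart: ACVR2B/Fc replicate 2 (270 CPM) and vehicle replicate 8 (1227 CPM) for liver, and vehicle replicates 7 (605 CPM) and 10 (20.6 CPM) for pituitary.

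ACVR2B/Fc changed 475 of the 19702 genes tested, or 2.41%, at an adjusted p under 0.05 (Benjamini-Hochberg) in edgeR's quasi-likelihood test. Of these, 221 rose (1.12%) and 254 fell (1.29%), and 3357 genes had an unadjusted p under 0.05. At these shares, 0 or 1 call in a gene list of the sizes used below lies near the background. The median log2 fold change over all genes was -0.01. The genes that rose were 46.5% of those called here, 57.2% with the part as covariate, and 12.4% with limma on log2(FPKM + 1), which is not TMM-scaled. A change of more than 1.5-fold was found for 72 of the genes that rose and 148 of those that fell, and of more than 2-fold for 45 and 82. The median size of the log2 fold change was 0.40 among genes that rose and 0.70 among those that fell. The groups did not overlap for 34 of the genes tested (0.173%), of which 22 were called higher and 12 lower. Protein coding genes made up 203 of the genes that rose and 245 of those that fell. The genes that fell were the less abundant: 89 of them reached a mean of 10 CPM in either group, against 139 of those that rose. A mean under 1 CPM in both groups was found for 73 of the genes that fell and 26 of those that rose. Without the libraries set apart, 17 and 11 of these were still called.

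**Figure D2:**
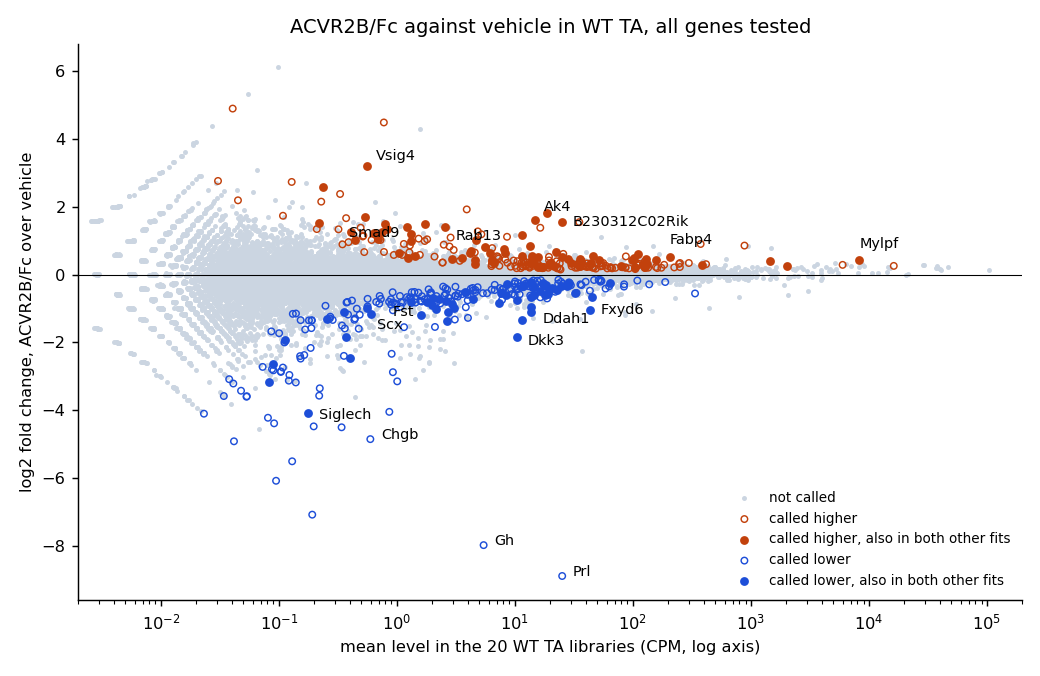
Log2 fold change of ACVR2B/Fc over vehicle in WT TA (vertical axis) against the mean CPM of the 20 libraries (log axis) for the 19702 genes tested. Coloured symbols are the 221 genes called higher and 254 called lower, filled where the gene was also called with the part as covariate and without the libraries set apart (78 higher, 54 lower). Prl and Gh lie at the lower edge.

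The number of calls changed with the libraries that were fitted and with the part as covariate. Without ACVR2B/Fc replicate 2 or vehicle replicate 7, 8 or 10 alone, 397, 439, 413 and 440 genes were called. Leaving out each of the other libraries in turn gave totals from 336 to 608. How much of the losses below came from fewer libraries or from the added covariate itself was not tested. Without the 4 WT libraries set apart and the 3 of R6/2 mice, 254 genes were called (117 higher, 137 lower), and 116 of the genes that rose and 141 of those that fell were no longer called. With the part as a covariate 250 genes were called (143 of them higher). These included 207 of the 475 genes called without it, in the same direction. A set of 132 genes (0.67% of those tested) was called in the same direction in all 3 fits, 78 higher and 54 lower, and is referred to below as called in all fits. Of the 254 genes that fell, 51 had their highest vehicle level in replicate 7, and 8 of these were still called without the libraries set apart. The other vehicle libraries were the highest for 10 to 35 genes each. The share of these libraries in the genes that fell was not tested further, but the pituitary genes among them were Prl, Gh, Chgb and Pomc, whose log2 fold changes of -8.89, -7.98, -4.85 and -5.51 became 0.35, 0.26, -1.53 and -3.09 without the libraries set apart, none of them called.

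**Figure D3:**
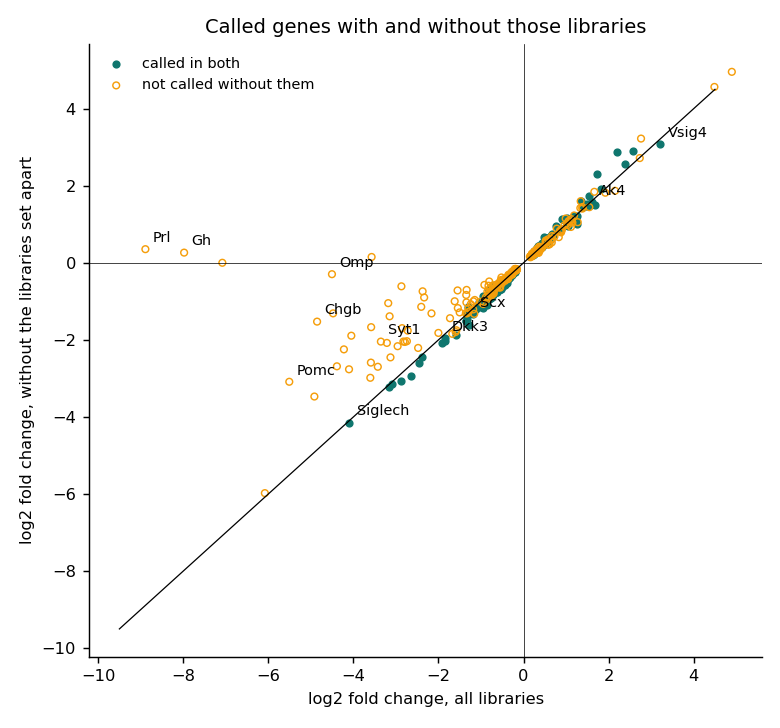
Log2 fold change of the called genes in all libraries (horizontal axis) and without the libraries set apart (vertical axis), with the line of equal values. Filled points stayed called and open points did not. Prl and Gh leave the line, at 0.35 and 0.26 without those libraries, and Ak4 (1.60 and 1.57) stays on it.

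The gene of smallest p was Ak4, which encodes an adenylate kinase of the mitochondrial matrix (GRCm38 chromosome 4, 101419277 to 101466995). Its lowest, median and highest levels were 12.4, 22.3 and 31.7 CPM in ACVR2B/Fc mice, against 4.43, 6.99 and 11.6 CPM in vehicle mice. Every ACVR2B/Fc library lay above every vehicle library, with a log2 fold change of 1.60 (SE 0.15, adjusted p = 3.47e-09). The rise was 1.68 within the first part of the series and 1.20 within the second, and 1.57 without the libraries set apart.

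B230312C02Rik, annotated as a long intergenic non-coding RNA on chromosome 2, rose by a log2 fold change of 1.55 (SE 0.19, adjusted p = 1.72e-06). Its levels were 20.8, 36.1 and 50.0 CPM at the lowest, median and highest in ACVR2B/Fc mice, against 7.52, 12.3 and 22.9 CPM in vehicle mice. The groups met only at their edges, where 2 ACVR2B/Fc libraries lay below the highest vehicle library. Ctla2a, which encodes a small protein related to the propeptide of cysteine proteases, was at 14.5, 16.8 and 22.9 CPM in ACVR2B/Fc mice and 6.06, 9.61 and 14.1 CPM in vehicle mice, without overlap (log2 fold change 0.85, SE 0.12, adjusted p = 3.31e-05). Its near copy Ctla2b, named after its values were seen, had a log2 fold change of 0.18 (adjusted p = 0.474), and reads that fit both genes could be shared between them.

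Others among the genes of smallest p rose by less. Rab13, a small GTPase of vesicle traffic, ran from 4.11 to 5.85 CPM in ACVR2B/Fc mice (median 5.10) and from 2.47 to 3.92 CPM in vehicle mice (median 3.21), without overlap (log2 fold change 0.64, SE 0.09). Polk, a DNA polymerase that copies across damaged bases, ran from 11.7 to 16.9 CPM in ACVR2B/Fc mice and from 7.52 to 11.3 CPM in vehicle mice (0.55, SE 0.08), again without overlap. Gadd45a, a stress gene that denervated and wasting muscle also induces, ran from 22.2 to 37.5 CPM in ACVR2B/Fc mice and from 13 to 21.3 CPM in vehicle mice (0.68, SE 0.12, adjusted p = 0.000698). Ccng1, a cyclin induced by p53, was at a median of 1673 CPM in ACVR2B/Fc mice and 1240 CPM in vehicle mice, and its groups overlapped (0.40, SE 0.07). Dync1li1, a light intermediate chain of cytoplasmic dynein, and Pde6d, which carries prenylated proteins between membranes, both rose by 0.33, and Pde6d did so without overlap. All of these genes were called in all fits.

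Fabp4, the fatty acid binding protein of adipocytes and capillary endothelium, ran from 202 to 276 CPM in ACVR2B/Fc mice (median 248) and from 123 to 202 CPM in vehicle mice (median 176). The groups touched at 202 CPM without crossing, and the log2 fold change was 0.52 (SE 0.08, adjusted p = 0.000181). The other listed adipocyte genes gave no call (1 of 17 higher, 0 lower), and the list had a median log2 fold change of -0.13 (0.06 without the libraries set apart), so the rise of Fabp4 was not one of the whole list. The listed genes of blood vessel endothelium gave 0 calls of 16, with 5 at an unadjusted p under 0.05 and 0 calls in DESeq2. Their median was 0.07. Their median was 0.28 with the part as covariate, 12 of the 16 had a positive log2 fold change, and 2 were called higher, the TGF-beta coreceptor Eng (0.62, adjusted p = 0.0199) and the apelin receptor Aplnr (1.03, 0.0354).

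Several weakly expressed genes at least doubled their level or came near it. Tmem266, a voltage-sensing membrane protein, rose by a log2 fold change of 1.39, with a median of 1.65 CPM in ACVR2B/Fc mice and 0.718 CPM in vehicle mice. Kcnf1, a modulatory potassium channel subunit, rose by 1.5, with medians of 1.07 and 0.392 CPM in ACVR2B/Fc and vehicle mice. Its levels overlapped widely, as 1 ACVR2B/Fc library held 0.0603 CPM. The RNAs annotated as antisense to Srrm4 and Irx3, Srrm4os and Irx3os, rose by 1.49 and 1.35, where the genes they face, named for this reason, had log2 fold changes of 0.03 (Srrm4, adjusted p = 0.970) and 0.27 (Irx3, adjusted p = 0.265). The sources used here do not state whether reads were counted by strand, so the transcripts of each pair may not be fully separated. C130080G10Rik, whose product is not described here, rose by 1.41.

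The gene of smallest p among those that fell was Fxyd6, a small membrane protein that modulates the sodium and potassium pump. Its levels were 19.2, 27.7 and 44.5 CPM at the lowest, median and highest in ACVR2B/Fc mice, against 45.5, 54.3 and 77.5 CPM in vehicle mice. The groups did not overlap, and the log2 fold change of -1.04 (SE 0.11, adjusted p = 5.06e-08) was -1.01 and -1.24 within the parts. Ddah1, which breaks down the nitric oxide synthase inhibitor dimethylarginine, ran from 5.86 to 10.6 CPM in ACVR2B/Fc mice and from 12.6 to 24.1 CPM in vehicle mice, also without overlap (-1.10, SE 0.13, adjusted p = 6.47e-07).

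Other genes of nitric oxide handling moved in both directions. Gucy1b1, a subunit of the guanylate cyclase that nitric oxide activates, ran from 6.93 to 9.91 CPM in ACVR2B/Fc mice and from 10.1 to 14.6 CPM in vehicle mice, and fell by 0.44 on the log2 scale without overlap (adjusted p = 0.0145). Slc7a2, a transporter of the substrate arginine, rose by 0.54, with medians of 100.7 CPM in ACVR2B/Fc mice and 72.9 CPM in vehicle mice. Of 11 tested genes of the list, 1 rose and 2 fell, and the median was -0.26. With the part as covariate the calls of Gucy1b1 (adjusted p = 0.115) and Slc7a2 (0.132) were lost, that of Gucy1b1 was also lost without the libraries set apart (0.0510), and that of Slc7a2 was also lost without each of 5 libraries in turn, at an adjusted p of up to 0.0675.

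Dkk3, a secreted glycoprotein of the Dickkopf family, was at 1.72, 3.66 and 11.8 CPM at the lowest, median and highest in ACVR2B/Fc mice, against 4.62, 14.9 and 31.5 CPM in vehicle mice. It had a log2 fold change of -1.85 (SE 0.30, adjusted p = 0.000342), and the highest ACVR2B/Fc library, replicate 9, lay above 4 vehicle libraries. Fbln1, an extracellular matrix protein, ran from 0.996 to 2.19 CPM in ACVR2B/Fc mice and from 2.45 to 5.56 CPM in vehicle mice without overlap (-1.36, SE 0.21). Igfbp3, which binds insulin-like growth factors in the circulation, fell by 0.76, with medians of 7.49 CPM in ACVR2B/Fc mice and 13 CPM in vehicle mice. Ednrb, the type B endothelin receptor, fell by 0.96, with medians of 9.42 and 17.7 CPM in ACVR2B/Fc and vehicle mice, and Tmem100, a membrane protein of endothelium, by 1.34, with medians of 5.93 CPM in ACVR2B/Fc mice and 14.4 CPM in vehicle mice. Within the second part of the series the change of Ednrb was -0.19 and that of Tmem100 was -2.25.

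Among genes of signalling and of the membrane skeleton, Pitpnm3 (a phosphatidylinositol transfer protein) fell by 0.83 and Adcy2 (an adenylate cyclase) by 0.67. Pitpnm3 ran from 3.73 to 6.42 CPM in ACVR2B/Fc mice and from 6.71 to 13.8 CPM in vehicle mice, without overlap. Sntb1, the syntrophin that binds dystrophin, fell by 1.11, with medians of 1.48 CPM in ACVR2B/Fc mice and 3.48 CPM in vehicle mice. Lrp4, the agrin receptor of the neuromuscular junction, fell by 0.36, with medians of 12.9 and 16.0 CPM in ACVR2B/Fc and vehicle mice. Ncald (a neuronal calcium sensor) and Fryl fell by 0.51 and 0.47. These genes were called in all fits.

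**Figure D4:**
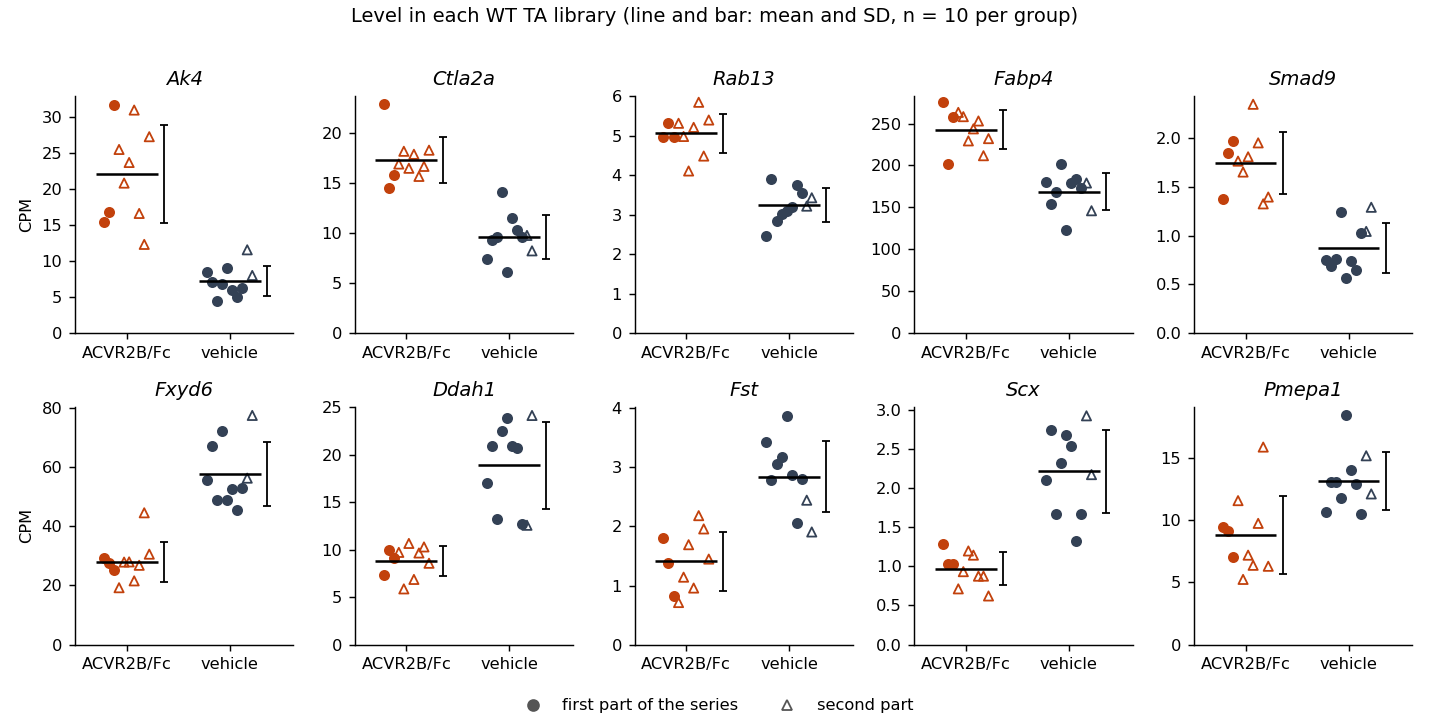
CPM of 10 genes in each WT TA library, with ACVR2B/Fc on the left and vehicle on the right, on axes that start at 0. Circles are libraries of the first part of the series and triangles of the second, and lines and bars give the mean and SD of 10 libraries. Ak4, Ctla2a, Rab13, Fabp4, Smad9, Fxyd6, Ddah1 and Scx do not overlap between the groups, while Fst and Pmepa1 do.

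Of the 44 genes listed as ligands, receptors, SMADs, inhibitors and other genes of activin and BMP signalling, 4 fell and 0 rose. A positive log2 fold change was found for 15 (median -0.06). Adding the part as covariate left 2 called lower, Fst and Ltbp3, and gave 1 called higher, Gdf11. Among the ligands, Mstn, the myostatin gene, was at 57.8, 72.1 and 96.3 CPM at the lowest, median and highest in ACVR2B/Fc mice and 47.1, 69 and 78.2 CPM in vehicle mice, which overlapped (log2 fold change 0.15, SE 0.11, adjusted p = 0.499). Gdf11 had a log2 fold change of 0.40 (adjusted p = 0.185), which was 0.59 with the part as covariate (0.0341), and Inhba, the activin A subunit, of 0.34 (0.700). Tgfb3 fell by 0.31, with medians of 31.9 CPM in ACVR2B/Fc mice and 40.2 CPM in vehicle mice (adjusted p = 0.0238). Tgfb1 and Tgfb2 had log2 fold changes of 0.07 and -0.05 (adjusted p = 0.868 and 0.851).

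The receptors gave no call. Acvr2b, whose extracellular part makes up the decoy, had medians of 2.06 CPM in ACVR2B/Fc mice and 2.36 CPM in vehicle mice (log2 fold change -0.14, adjusted p = 0.608). Acvr2a was at medians of 47.6 and 45.8 CPM in ACVR2B/Fc and vehicle mice (0.04, adjusted p = 0.833). The type I receptor Acvr1 came nearest to a call, at -0.27 (adjusted p = 0.0626), and was called without each of 3 libraries in turn, ACVR2B/Fc replicate 4 and vehicle replicates 1 and 8, at an adjusted p down to 0.0362. The type I receptors Acvr1b and Tgfbr1 had log2 fold changes of 0.06 and 0.08 (adjusted p = 0.876 and 0.651).

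The remaining calls were those of the inhibitors Fst and Wfikkn2 and of Ltbp3. Fst, which encodes follistatin, a secreted protein that binds activins and myostatin, was at 0.711, 1.41 and 2.18 CPM at the lowest, median and highest in ACVR2B/Fc mice, against 1.91, 2.84 and 3.87 CPM in vehicle mice. It fell by 1.01 on the log2 scale (SE 0.19, adjusted p = 0.00173) with a narrow overlap, and was called in all fits. Wfikkn2, another secreted binder of myostatin and GDF11, ran from 8.36 to 11.8 CPM in ACVR2B/Fc mice and from 11.6 to 14.4 CPM in vehicle mice (-0.35, adjusted p = 0.0209). Ltbp3, which tethers latent TGF-beta in the matrix, fell by 0.33 (adjusted p = 0.00777). The calls of Wfikkn2 and Tgfb3 were lost with the part as covariate (adjusted p = 0.0620 and 0.0767) and without the libraries set apart (0.0722 and 0.0767), and their log2 fold changes were then between -0.29 and -0.34. The further inhibitors Nog, Chrd and Fstl3 had log2 fold changes of 0.43, -0.28 and -0.26 (adjusted p = 0.322, 0.372 and 0.511).

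Of the SMADs, Smad9 rose, from the list of BMP targets. Its levels were 1.33, 1.79 and 2.35 CPM at the lowest, median and highest in ACVR2B/Fc mice and 0.568, 0.755 and 1.29 CPM in vehicle mice, without overlap (log2 fold change 0.99, SE 0.21, adjusted p = 0.00665). Smad2, Smad3 and Smad4 had log2 fold changes of 0.04, -0.29 and -0.01 (adjusted p = 0.787, 0.162 and 0.971). Of the 13 BMP targets, 1 rose and 1 fell, with a median of 0.03. Smad9 and Id2 were the 2 called higher with the part as covariate, and 0 were called lower (median 0.13), and without the libraries set apart 1 was called higher, Smad9, with a median of -0.06. Within the parts the medians were 0.00 and 0.42. The gene that fell was Id4, an inhibitor of basic helix-loop-helix factors (-0.72, adjusted p = 0.0215), whose call was lost with the part as covariate (0.108) and without the libraries set apart (0.113). The related Id1, Id2 and Id3 had log2 fold changes of 0.03, 0.39 and 0.17 (adjusted p = 0.964, 0.158 and 0.591), and Id2 was at 0.55 with the part as covariate (0.0485).

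Of the 20 listed targets of SMAD2 and SMAD3, 1 fell and 0 rose. A negative log2 fold change was found for 17 of the 20, with a median of -0.33, and 8 had an unadjusted p under 0.05. Pmepa1, which encodes a membrane protein that restrains TGF-beta signalling, was at 5.23, 8.16 and 15.9 CPM at the lowest, median and highest in ACVR2B/Fc mice and 10.4, 13 and 18.4 CPM in vehicle mice. It fell by 0.58 (SE 0.15, adjusted p = 0.0222) with overlap, and the call was lost with the part as covariate (0.106) and without vehicle replicate 5 (0.0540). Tgfbi and Skil had log2 fold changes of -0.62 and -0.33 (adjusted p = 0.0599 and 0.0787), and Smad7 of 0.00 (1). The list median was -0.13 with the part as covariate, where 14 of the 20 were negative, and -0.28 and -0.12 within the parts. Col1a1, Col1a2 and Col3a1 also stand in the list of collagens, and Fn1, Thbs1 and Postn in that of matrix proteins. These lists are therefore not separate observations.

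Of the 16 listed genes of fast fibres, 3 rose and 0 fell, 15 had a positive log2 fold change, and 10 had an unadjusted p under 0.05 (median 0.19). Mylpf, a light chain of fast myosin, was at 7188, 9517 and 11802 CPM at the lowest, median and highest in ACVR2B/Fc mice and 6456, 7209 and 7946 CPM in vehicle mice (log2 fold change 0.42, SE 0.08, adjusted p = 0.00361). Tnnt3, fast troponin T, ran from 16643 to 18819 CPM in ACVR2B/Fc mice and from 13530 to 15829 CPM in vehicle mice without overlap (0.26, SE 0.06, adjusted p = 0.0124). Tnnc2, fast troponin C, rose by 0.29 (adjusted p = 0.0417), a call that was lost without each of 12 libraries in turn, at an adjusted p of up to 0.0799, and with the part as covariate (0.130). The list median was 0.30 within the first part of the series and 0.00 within the second, and without the libraries set apart 1 of its genes, Mylpf, was called.

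The 15 genes of slow fibres gave 0 calls in edgeR, 1 gene at an unadjusted p under 0.05 and 0 calls in DESeq2. Their median of 0.19 equalled that of the fast list to 2 decimals, and was 0.06 with the part as covariate. Actc1, the cardiac actin that developing muscle also uses, rose by 0.90, with medians of 531 CPM in ACVR2B/Fc mice and 256 CPM in vehicle mice and wide overlap (adjusted p = 0.0493). Myl4, an embryonic myosin light chain, fell by 0.58 (adjusted p = 0.0474). Both calls lay close to the threshold, and were lost without each of 15 and 14 libraries in turn, at adjusted p of up to 0.0923 and 0.1, and with the part as covariate (0.0945 and 0.0985).

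Over all genes tested, 2.41% were called and 3357 of 19702 had an unadjusted p under 0.05. In lists of the sizes below, 0 or 1 call lies near that share and is not read as a result about energy metabolism. The 28 genes of glycolysis and glycogen gave 0 calls, with 6 at an unadjusted p under 0.05 and 2 called higher in DESeq2 (median 0.06). The 53 genes of the respiratory chain gave 0 calls, with 3 at an unadjusted p under 0.05 and 0 in DESeq2 (median 0.03). The 18 genes of the citrate cycle gave 0 calls, with 1 at an unadjusted p under 0.05 and 1 called lower in DESeq2 (median 0.01). Pdk1, a kinase that inhibits pyruvate dehydrogenase, rose by 0.19 with medians of 111 and 94.8 CPM in ACVR2B/Fc and vehicle mice (adjusted p = 0.0479). Ppara, a nuclear receptor that drives fatty acid oxidation, fell by 0.42, with medians of 7.41 CPM in ACVR2B/Fc mice and 10.1 CPM in vehicle mice (adjusted p = 0.0250), and Vldlr, a lipoprotein receptor, rose by 0.31 (adjusted p = 0.0325). All 3 calls were lost without at least 3 of the 20 libraries in turn, at adjusted p of up to 0.0863, 0.0554 and 0.0653. They were also lost with the part as covariate (Pdk1 0.145, Ppara 0.0573, Vldlr 0.127), and those of Pdk1 and Vldlr without the libraries set apart (0.0910 and 0.0568).

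The lists of polyamine, proteasome and atrophy genes gave 1 call each, where 2.41% of all genes tested were called. Sms, spermine synthase, ran from 137 to 208 CPM in ACVR2B/Fc mice (median 184) and from 114.04 to 154 CPM in vehicle mice (median 137), and rose by 0.44 (SE 0.09, adjusted p = 0.00524). It was the 1 called gene of 12 listed for polyamines, 6 of which had an unadjusted p under 0.05 (median 0.20). Of 34 proteasome genes, 1 rose and 31 had a positive log2 fold change (median 0.10). The gene that rose was Psmd8 (0.27, adjusted p = 0.0302), whose call was lost without each of 7 libraries in turn, at an adjusted p of up to 0.0642, with the part as covariate (0.115) and without the libraries set apart (0.142). Within the second part of the series the proteasome median was -0.06. How much of a median this small comes from the scaling of the libraries was not tested. Of 22 genes of atrophy and FOXO targets, 1 rose, the Gadd45a described above, and the list median was -0.06. The atrophy ubiquitin ligases Trim63 and Fbxo32, named after their values were seen, had log2 fold changes of -0.06 and 0.21 (adjusted p = 0.855 and 0.437).

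The 53 tested genes of the cytosolic ribosome gave 0 calls in edgeR, with 6 at an unadjusted p under 0.05 and 0 in DESeq2. Atg12, an autophagy conjugation factor, ran from 35.2 to 41 CPM in ACVR2B/Fc mice and from 25.7 to 34.4 CPM in vehicle mice without overlap, and rose by 0.25 (SE 0.05, adjusted p = 0.00475). Mthfd2, a mitochondrial enzyme of folate metabolism that the amino acid stress response induces, rose by 0.65, with medians of 5.56 CPM in ACVR2B/Fc mice and 3.28 CPM in vehicle mice (adjusted p = 0.0233). Its call was lost without ACVR2B/Fc replicate 5 (adjusted p = 0.0568), with the part as covariate (0.0620) and without the libraries set apart (0.117). Of the 17 tested myokines, 2 rose and 1, Dkk3, fell. Those that rose were Bdnf, a neurotrophin (1.04, with medians of 2.13 CPM in ACVR2B/Fc mice and 1.05 CPM in vehicle mice), and Apln, a peptide ligand that acts on vessels (1.01, with medians of 6.23 CPM in ACVR2B/Fc mice and 2.90 CPM in vehicle mice). Apln was called in all fits, and the call of Bdnf was lost without the libraries set apart (adjusted p = 0.0590).

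All 11 listed tendon markers had a negative log2 fold change (median -0.90), 9 had an unadjusted p under 0.05, and 1 was called in edgeR and 3 in DESeq2. Scx, the transcription factor scleraxis that specifies tendon cells, was at 0.620, 0.977 and 1.29 CPM at the lowest, median and highest in ACVR2B/Fc mice and 1.32, 2.24 and 2.92 CPM in vehicle mice. The groups did not overlap (log2 fold change -1.19, SE 0.21, adjusted p = 0.000839), and the change was -0.93 and -1.49 within the parts. Summed over the list, the level ran from 74.6 to 229 CPM in ACVR2B/Fc mice (median 159) and from 89.3 to 408 CPM in vehicle mice (median 297), with overlap. A negative log2 fold change was found for 10 of the 11 with the part as covariate, and 1 was called, Scx. The list median was -0.61 in that fit, -0.82 and -0.33 within the parts, and -1.23 without the libraries set apart, where 4 of the 11 were called. How much of the tendon end each dissected muscle carried was not tested.

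Calls among matrix genes stayed near the share over all genes tested (2.41%). Of 36 matrix proteins and remodelling enzymes, 1 fell, 0 rose and 33 had a negative log2 fold change (median -0.27). The gene that fell was Mfap4, a protein of elastic microfibrils (-1.28), with medians of 2.38 CPM in ACVR2B/Fc mice and 5.50 CPM in vehicle mice (adjusted p = 0.0494). The 20 collagens gave 0 calls in edgeR and in DESeq2, with 3 at an unadjusted p under 0.05, and 17 had a negative log2 fold change (median -0.18). Col1a1 was at medians of 80.1 CPM in ACVR2B/Fc mice and 135 CPM in vehicle mice, with a log2 fold change of -0.86 (adjusted p = 0.226). Within the second part of the series the medians were 0.14 for collagens and 0.02 for matrix proteins. With the part as covariate they were 0.11 and -0.06, so for collagens the direction of the median turned, and the call of Mfap4 was lost (adjusted p = 0.272).

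Genes of fibro-adipogenic cells, the connective tissue progenitors of muscle, all had a negative log2 fold change (14 of 14, median -0.29), and 1 fell. It was Gsn, the actin-severing protein gelsolin (-0.56, adjusted p = 0.0493), with medians of 271 and 407 CPM in ACVR2B/Fc and vehicle mice. The calls of Mfap4 and Gsn were each lost without any of 15 libraries in turn, at adjusted p of up to 0.0963 and 0.0974. The summed level of the 14 genes ran from 765 to 1349 CPM in ACVR2B/Fc mice (median 970) and from 934 to 1592 CPM in vehicle mice (median 1311). Their median was -0.32 and 0.01 within the parts. It was -0.14 with the part as covariate, with 10 of the 14 negative, and the call of Gsn was lost (adjusted p = 0.173).

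Markers of Schwann cells, which wrap the axons of peripheral nerve, numbered 12. All 12 had a negative log2 fold change, with all libraries, with the part as covariate (median -0.59) and without the libraries set apart (median -0.78), against a median of -0.68 with all libraries. At an unadjusted p under 0.05 there were 9 genes, and 2 fell in edgeR and 4 in DESeq2. S100b, a calcium-binding protein, had medians of 0.676 CPM in ACVR2B/Fc mice and 1.14 CPM in vehicle mice (-0.89, adjusted p = 0.0285). The summed level ran from 42.3 to 84.1 CPM in ACVR2B/Fc mice (median 60.1) and from 56.4 to 123 CPM in vehicle mice (median 77.7). The list gave 0 calls with the part as covariate and without the libraries set apart, and the call of S100b was lost without each of 6 libraries in turn, at an adjusted p of up to 0.0654.

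Of the 8 neuronal genes, 2 fell. Stmn2, a tubulin-binding protein of growing axons, ran from 1.20 to 2.66 CPM in ACVR2B/Fc mice and from 2.43 to 5.31 CPM in vehicle mice (-0.78, SE 0.15, adjusted p = 0.00169), and was called in all fits. Syt1, a calcium sensor of synaptic vesicles, fell by 3.35 with all libraries (adjusted p = 0.0271) and had a log2 fold change of -2.05 without the libraries set apart (0.245). Heyl, a Notch target of satellite cells and pericytes, fell by 0.57, with medians of 7.22 CPM in ACVR2B/Fc mice and 11 CPM in vehicle mice (adjusted p = 0.0253). Ccl21a, a chemokine of lymphatic endothelium, fell by 1.33, with medians of 1.39 CPM in ACVR2B/Fc mice and 3.78 CPM in vehicle mice (adjusted p = 0.0233). The call of Heyl was lost without each of 3 libraries in turn (up to 0.0574), and that of Ccl21a without vehicle replicate 6 (0.0505) and without the libraries set apart (0.0589). Both were lost with the part as covariate (Heyl 0.163, Ccl21a 0.206).

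Of 18 tested macrophage genes, 1 rose and 1 fell, both at low levels, and 6 had a negative log2 fold change (median 0.07). The median was 0.28 with the part as covariate and -0.02 without the libraries set apart, where 10 of the 18 were negative. Vsig4, a complement receptor of resident macrophages, was at 0.271, 0.750 and 2.71 CPM at the lowest, median and highest in ACVR2B/Fc mice and 0, 0.118 and 0.206 CPM in vehicle mice, without overlap (log2 fold change 3.21, SE 0.53, adjusted p = 0.000414). Siglech, a lectin of plasmacytoid dendritic cells and microglia, was at 0 in most ACVR2B/Fc libraries and at most 0.0901 CPM, against 0.141 to 0.619 CPM in vehicle mice (median 0.305). The fitted log2 fold change was -4.09 (SE 0.61, adjusted p = 0.000124) and rests on very few reads in ACVR2B/Fc mice. The 16 others were between -0.60 (Folr2) and 0.63 (Timd4).

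Of 20 tested genes of cell division, 1 rose in edgeR and 3 in DESeq2, 19 had a positive log2 fold change, and 10 had an unadjusted p under 0.05 (median 0.52). Birc5, the mitotic protein survivin, was at medians of 0.380 CPM in ACVR2B/Fc mice and 0.161 CPM in vehicle mice (log2 fold change 1.34, adjusted p = 0.0238), and its call was lost without ACVR2B/Fc replicate 5 (0.0713), with the part as covariate (0.0523) and without the libraries set apart (0.0639). Cdk1 was called in its place with the part as covariate, at a log2 fold change of 1.47 (adjusted p = 0.0355), and without the libraries set apart no gene of the list was. Summed, the list ran from 47.8 to 68.2 CPM in ACVR2B/Fc mice (median 54.6) and from 46.2 to 53.5 CPM in vehicle mice (median 48.4). Its median was 0.30 and 0.76 within the parts.

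**Figure D5:**
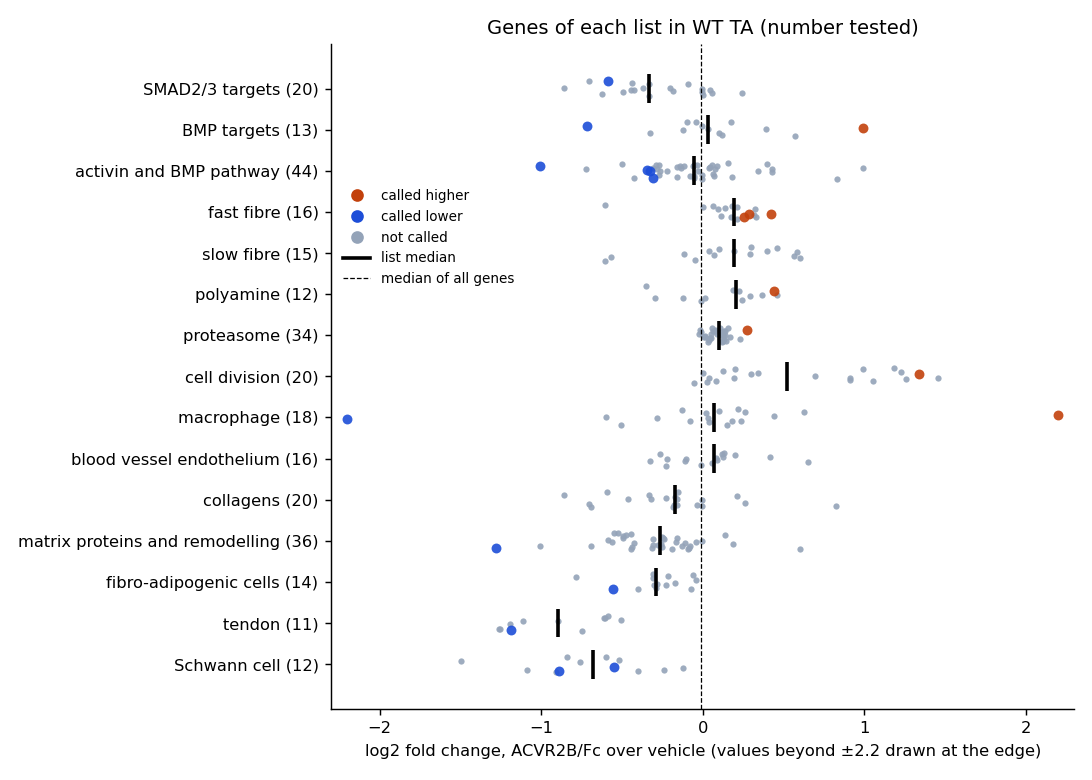
Log2 fold change of ACVR2B/Fc over vehicle in WT TA for the genes of 15 lists, with the number tested after each name. Coloured points are called genes, black bars the list medians and the dashed line the median of all genes (-0.01), and values beyond the axis are drawn at its edge. The tendon, Schwann cell and fibro-adipogenic lists lie wholly below 0 (medians -0.90, -0.68 and -0.29), and the cell division list has the highest median (0.52).

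The response was then set against those of R6/2 TA and of WT quadriceps, in which 430 (2.18%) and 247 genes (1.25%) were called. Of the 78 genes higher in all fits, 26 were also called higher in R6/2 TA and 42 in WT quadriceps, and of the 54 lower in all fits, 25 and 18 were also called lower. Over all 475 genes the share was lower, 109 (22.9%) in each comparison, which is 25.3% of the genes called in R6/2 TA and 44.1% of those called in WT quadriceps. Among all 475 genes, 0 were called in the opposite direction in either comparison. Ak4 rose by a log2 fold change of 1.17 in R6/2 TA and 1.18 in WT quadriceps, Fxyd6 fell by 0.96 and 0.94, and Vsig4 rose by 3.80 and 3.46. The quadriceps came from the same mice as the TA, so its values are not from independent animals.

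The difference between the responses of WT and R6/2 TA passed the test for 1 gene (0.00508% of those tested), B230312C02Rik, with 1662 genes at an unadjusted p under 0.05. Its log2 fold change was 1.55 in WT TA and -0.06 in R6/2 TA, a difference of 1.61 (adjusted p = 0.00905). The difference was 1.46 with the part as covariate and was not called (adjusted p = 0.110), and no other gene passed in that fit. In WT quadriceps it rose by 1.20 (adjusted p = 0.0183). Dkk3 and Fbln1 had log2 fold changes of -0.14 and -0.15 in R6/2 TA, against -1.85 and -1.36 in WT TA, but the differences of -1.72 and -1.22 did not pass the test (adjusted p = 0.118 and 0.112). Between WT TA and WT quadriceps the difference of response passed the edgeR test for 0 genes (0%), with 1321 at an unadjusted p under 0.05.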

How the data were processed

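Messenger RNA of the TA and quadriceps was sequenced by the authors, who converted base calls with CASAVA 1.8.2 and used OSA (Omicsoft) to align read pairs to B38, with gene models of Ensembl R75. The deposited estimated counts of 39179 genes are not normalized between libraries, and 28.0% of the values above 0 are not whole. The deposited FPKM are the authors' counts divided by library total and gene length, and served an alternative. Symbols and GRCm38 coordinates of GENCODE vM21 were matched to 37607 identifiers.

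Estimated counts were rounded, and genes with 2 counts or more in at least 10 of 79 libraries entered the tests (1 quadriceps library that the study leaves out was left out). The 40 TA libraries were fitted in 4 groups with edgeR 4.0.16 in R 4.3.3 (TMM factors, estimateDisp, legacy quasi-likelihood F test), with calls made where the Benjamini-Hochberg adjusted p was under 0.05. Standard errors are log2 fold changes divided by the square root of F. The difference between muscles was fitted with the mouse as a block over the 19 WT mice with both muscles. Alternatives used DESeq2 1.42.0 and limma 3.58.1 on log2(FPKM + 1) and log2(FPKM + 0.1). On simulated counts for this comparison over 19702 genes, edgeR recovered 94 of 100 genes changed by a log2 fold of 1 and 76 of 100 changed by 0.5, with 12 false calls, and DESeq2 97, 82 and 21. The simulated counts held no effect of the part and no libraries with other-tissue transcripts. Their false calls therefore do not measure what these 2 features add in the data. Python 3.11.15, numpy 2.4.6, pandas 2.3.3 and matplotlib 3.10.9 were also used.

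The labels give 1 mouse per library, so p-values measure the spread between mice. Counting error is small at these depths except below about 1 CPM. Replicate numbers did not pair the samples: over 2000 genes, the correlation of same-numbered libraries averaged 0.0215 (-0.169 to 0.281) and exceeded 0.1 in 3 of 10 pairs. No 2 libraries held the same values.

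The genes named are the 12 higher and 12 lower of smallest p and the 8 and 8 of largest fold that were also called without the libraries set apart, all with a mean of at least 1 CPM, up to 4 called genes per list, the members of the activin, BMP and SMAD lists, genes called in a difference of response, and up to 4 liver and pituitary genes. A few of these are not reported here. The comparison, the gene lists and the threshold for libraries set apart were chosen with earlier results of these data known, so no list was tested as a set. Some genes stand in more than 1 list.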

Additional observations from a re-analysis of the deposited data

Results flagged for a closer look

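In groups of 10 libraries, a library is named here when its gap to the nearest other exceeds 0.466 of the whole range (Dixon's 95% value), which chance gives in about 1 of 20 groups. The liver list summed to 270 CPM in ACVR2B/Fc replicate 2, where the next ACVR2B/Fc library held 19.3 CPM, and to 1227 CPM in vehicle replicate 8, where the next vehicle library held 21.5 CPM. The pituitary list summed to 605 CPM in vehicle replicate 7, next to 20.6 CPM in vehicle replicate 10. Among ACVR2B/Fc libraries it was highest in replicate 8, at 1.66 CPM, where the next held 0.129 CPM. Of 292 groups of values of named genes, 42 had such a library.

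The response of B230312C02Rik differed between WT and R6/2 TA by 1.61 on the log2 scale in the test of the difference (adjusted p = 0.00905 in edgeR), a call that was lost with the part as covariate (1.46, adjusted p = 0.110) and with lane number and part (1.43, 0.239).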

How the results depend on the processing

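The comparison gave 475 calls (221 higher, 254 lower), and 47 of the 72 called genes that the naming rule picked stayed called without each of the 20 libraries in turn. Leave-one-out totals ran from 336 to 608, of which 43.1 to 51.2% were higher, with 157 to 274 higher and 164 to 334 lower, the fewest lower without ACVR2B/Fc replicate 7. DESeq2 called 741 (374 higher, 367 lower), and a fit of all 79 libraries 295 higher and 406 lower. With the part as covariate 250 were called (57.2% higher), with lane number and part 172 (60.5% higher), within the first part 30 (76.7% higher) and within the second, with 2 vehicle libraries, 9 (22.2% higher). Without libraries with other-tissue transcripts there were 254 (117 higher, 137 lower), and with a fold over 1.5 required 220 (32.7% higher). On log2(FPKM + 1) limma called 474 (12.4% higher, 415 lower) and on log2(FPKM + 0.1) 789 (10.6% higher), where the medians of all genes were -0.035 and -0.086, and the cause was not tested. Relative log expression factors, no filter, a filter of 1 CPM, WT TA alone (615 called), counts rounded up and a robust spread kept the total within 1.5 times. With the replicate block 392 genes were called (192 higher, 200 lower), although the numbers do not pair the samples. The genotype difference gave 1 gene, 16 with DESeq2, 2 without other-tissue libraries (B230312C02Rik and Ptar1), 1 with the replicate block and 0 in edgeR with the part as covariate, where 1259 had an unadjusted p under 0.05. The muscle difference gave 0 without the mouse block and 2 without mice with other-tissue transcripts (BC023105 and Gm20659). Nr4a2, an immediate early gene that fell by 1.55, was at 0.38 within the second part. It was not called without vehicle replicate 7 (adjusted p = 0.0769), with the part as covariate, or without other-tissue libraries. Prl and Gh turned to 0.35 and 0.26 without other-tissue libraries. Counts under about 1 CPM limit the precision of the weakest genes.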

Other observations

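Genes outside the lists that were called in all fits were picked after their values were seen and are given as values. Ccnd1, cyclin D1 of the G1 phase, was at 6.66, 16.8 and 22.9 CPM at the lowest, median and highest in ACVR2B/Fc mice and 5.46, 6.67 and 9.25 CPM in vehicle mice (log2 fold change 1.18, adjusted p = 0.0119 in edgeR's quasi-likelihood test). Angpt2, a ligand that loosens vessel walls, rose by 0.82, with medians of 6.18 CPM in ACVR2B/Fc mice and 3.93 CPM in vehicle mice. Msr1, a scavenger receptor of macrophages, rose by 1.04, with medians of 0.850 CPM in ACVR2B/Fc mice and 0.469 CPM in vehicle mice. Fabp5, a relative of Fabp4, rose by 0.77, with medians of 10.2 CPM in ACVR2B/Fc mice and 6.22 CPM in vehicle mice. Rhoq, a GTPase of glucose transporter traffic, rose by 0.29, with medians of 419 CPM in ACVR2B/Fc mice and 343 CPM in vehicle mice.

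Among genes that fell in all fits, Alpl, tissue non-specific alkaline phosphatase, was at medians of 10.2 CPM in ACVR2B/Fc mice and 16.9 CPM in vehicle mice (-0.65). Ramp1, a subunit of the receptor for calcitonin gene-related peptide, fell by 0.55, with medians of 25.8 CPM in ACVR2B/Fc mice and 39.6 CPM in vehicle mice. Cdon, a surface receptor that promotes myogenic differentiation, fell by 0.44, and Syp, the synaptic vesicle protein synaptophysin, by 0.82. In the other direction H19, an imprinted non-coding RNA, ran from 791 to 1593 CPM in ACVR2B/Fc mice and from 498 to 780 CPM in vehicle mice without overlap (0.86, adjusted p = 0.0157), but was not called without the libraries set apart (0.0822).

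Vehicle replicate 10 also held transcripts of the olfactory system. Omp, the marker of mature olfactory neurons, was at 6.25 CPM there and at most 0.120 CPM in the 16 libraries not set apart. Stoml3 was at 3.78 CPM, with at most 0.115 CPM in those 16, and Ptgds, abundant in the meninges, was at 12.2 CPM, with at most 1.33 CPM in them.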
